A study of Sus scrofa with 12 samples.

Results

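MAB21L2, PPP2R2C and PAK3 are 3 of the 24358 pig genes measured in both expression tables of the study. They were selected on their low level in NANOG tdTomato knock-in positive cells against WT cells, so their difference in that contrast is a description and carries no test. Each symbol matched 1 row in each table, and all 3 genes were followed through 12 RNA-seq libraries. The question was how the 3 genes behaved in each knock-in line and whether their level in Activin A or SB431542 came back to that of WT.

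The cells were PC-iPS cells, induced pluripotent stem cells made from pig pericytes with the factor set abbreviated OSKC, and all 4 groups descend from this cell. WT PC-iPS cells, the parental line without the reporter, and NANOG tdTomato knock-in positive cells, PC-iPS cells with a red fluorescent reporter inserted at NANOG, were kept in LCDMV medium. The knock-in cells were 3 lines named nanog1 to nanog3, obtained by puromycin selection and sorting for tdTomato, and they are titled by these numbers. The Activin A and SB431542 groups were knock-in cells, which the study tested in T1 medium (LCDMV without LIF). Activin A is a ligand that activates SMAD2/3, and SB431542 inhibits the type I receptors it acts through. Each group had 3 libraries, numbered 1 to 3. The labels give neither the dose nor the duration of the treatments for these libraries, and no label says whether the 3 WT libraries came from separate cultures, so the spread between libraries may be partly technical. Feeder cells were reduced before extraction by letting them attach for 1 h and collecting the cells in suspension.

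MAB21L2 belongs to the MAB21 family, whose members share a nucleotidyltransferase-like fold with the DNA sensor cGAS. It is required for development of the eye and the ventral body wall, and is expressed in the developing retina and midbrain. PPP2R2C encodes the B55 gamma regulatory subunit of protein phosphatase 2A (PP2A), an enzyme built from a scaffold subunit, a catalytic subunit and an exchangeable regulatory subunit that directs it to substrates. B55 gamma is found mainly in brain. PAK3 is a group I p21-activated kinase, activated by the small GTPases RAC and CDC42, and it acts on the actin cytoskeleton and on dendritic spines of neurons.

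In the RefSeq annotation of Sscrofa11.1, MAB21L2 (ENSSSCG00000009022 in the tables) lies at chr8:78385176-78388008, inside the span of LRBA at chr8:77970087-78680307. PPP2R2C (ENSSSCG00000008712) lies at chr8:4218228-4352043, and PAK3 (ENSSSCG00000025306) at chrX:90941976-91244331.

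All values are FPKM, fragment counts scaled to gene length and to the reads of a library. Read totals were not used here. Values under 0.3 FPKM step in multiples that reflect depth, and relative to a reference library the WT libraries had a depth of 0.559 to 0.633, against 0.727 to 0.986 in knock-in, 0.859 to 0.973 in Activin A and 0.824 to 0.959 in SB431542. The 13 mitochondrial protein-coding genes took 13.9% to 16.4% of summed FPKM in WT and 9.43% to 11.5% in the other groups. Depth and mitochondrial share therefore separated WT from the knock-in groups as the 3 genes did, and their part in the difference was not tested. NANOG, the targeted gene, ran from 9.71 to 27.6 FPKM in WT and from 52.0 to 101 in knock-in. In bulk RNA, fewer cells of a type and less RNA per cell cannot be told apart.

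MAB21L2 was among the abundant transcripts of WT PC-iPS cells, at 53.0, 25.8 and 39.6 FPKM in libraries 1, 2 and 3. In the knock-in lines nanog1, nanog2 and nanog3 it measured 0.664, 0.419 and 3.98 FPKM. The groups did not overlap, and the line nanog3 kept the most MAB21L2. The mean was 39.5 ± 13.6 FPKM (SD, n = 3) in WT and 1.69 ± 1.99 (n = 3) in knock-in, so the WT mean was 23.4 times the knock-in mean. The line nanog3 carries that mean, and without it the ratio was 72.9. Even the lowest WT library held 6.49 times the level of nanog3. In WT, 84.8% to 93.8% of the genes detected in a library lay below MAB21L2, and in knock-in 21.1% to 43.9% did.

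PPP2R2C was a mid-level transcript in WT, at 19.0, 10.7 and 5.16 FPKM. The knock-in lines measured 0.318, 0.204 and 0.774 FPKM, again with nanog3 the highest and no overlap with WT. Its mean was 11.6 ± 6.95 FPKM (SD, n = 3) in WT and 0.432 ± 0.302 (n = 3) in knock-in, a ratio of 26.9 that was 44.5 without nanog3. Spread was wide on both sides, and the lowest WT library stood at 6.67 times the highest knock-in line. Between 15.7% and 25.9% of detected genes lay below PPP2R2C in the knock-in lines, against 47.7% to 79.5% in WT.

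PAK3 was the most abundant of the 3 genes by mean FPKM in all 4 groups. WT held 94.9, 42.6 and 38.9 FPKM, with library 1 well above the other two. The knock-in lines held 9.82, 7.21 and 14.0 FPKM, which still ranked PAK3 above 56.0% to 71.4% of detected genes. The mean was 58.8 ± 31.3 FPKM (SD, n = 3) in WT and 10.3 ± 3.43 (n = 3) in knock-in, a ratio of 5.68, and the lowest WT library held 2.77 times the highest knock-in line.

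On the log2(FPKM + 1) scale, which understates the change of low genes, the differences between knock-in and WT were -4.10 for MAB21L2, -3.00 for PPP2R2C and -2.32 for PAK3. These ranked 1, 3 and 5 among the falls of 14014 genes fitted with limma. Of these genes, 99 were called lower in knock-in, 0.706%, and 2.31% were called in either direction. A gene was called where its log2 difference was 1 or more in size and its adjusted p (Benjamini-Hochberg) was 0.05 or less. The 3 genes were selected in this contrast, so nothing is read from their place in it. The same holds for the lack of overlap between WT and knock-in. Of the 14014 genes, 28.6% had an unadjusted limma p under 0.05, and the share without overlap was not counted. As log2 ratios of mean FPKM the differences of MAB21L2, PPP2R2C and PAK3 were -4.55, -4.75 and -2.51, which puts PPP2R2C beside MAB21L2.

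**Figure D1:**
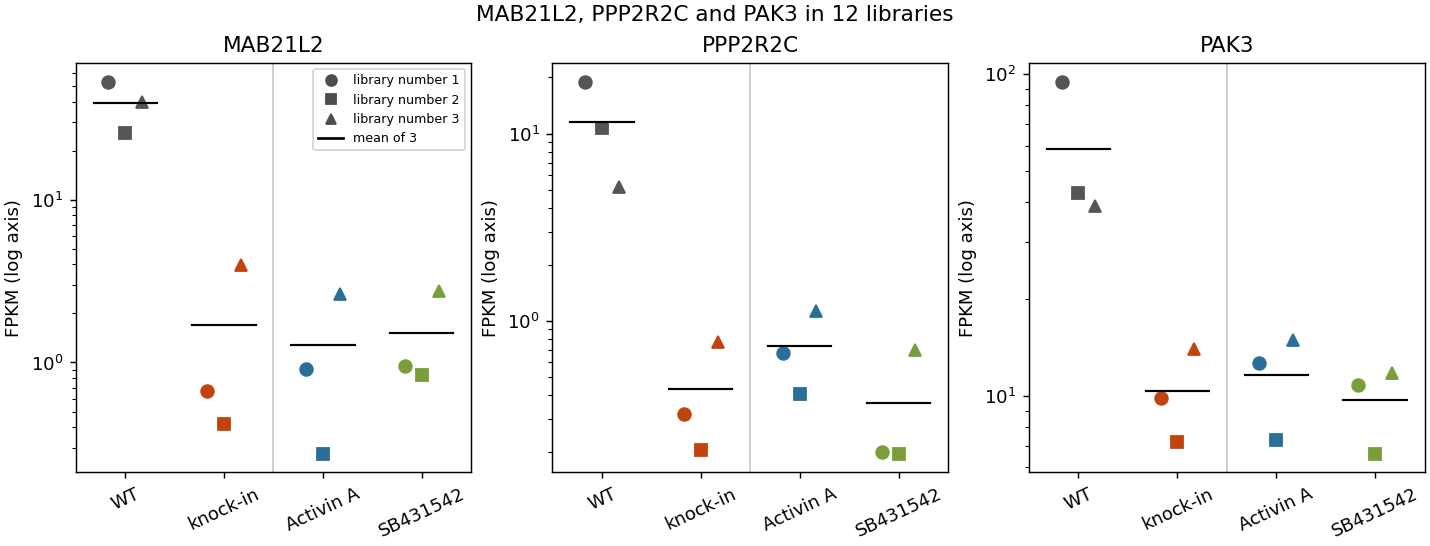
FPKM (log axis) of MAB21L2, PPP2R2C and PAK3 in each of 12 libraries, with marker shape for the library number and a bar for the mean of 3; the vertical line separates the table of WT and knock-in from the table of Activin A and SB431542. The WT libraries lie above all 9 libraries of the other groups in each panel, and number 3 is the highest library within knock-in, Activin A and SB431542.

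The treated libraries lay far below WT, and some fell outside the range of the 3 untreated knock-in lines for each gene. MAB21L2 measured 0.908, 0.275 and 2.65 FPKM in Activin A and 0.957, 0.835 and 2.74 FPKM in SB431542. These amount to 3.24% and 3.83% of the WT mean, beside 4.28% in untreated knock-in. Without library 3 of the group the WT mean was 66.7, 44.1 and 72.9 times the mean in Activin A, SB431542 and knock-in. The lowest WT library was 9.75 times the highest Activin A library and 9.41 times the highest SB431542 library. The treated and the untreated groups come from separate tables and differ in medium, so these levels are set side by side and were not tested against each other. The study ran its cytokine screen without feeder cells. The paper does not say whether feeders were present for the treated libraries, so the groups may differ in this too.

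PPP2R2C measured 0.671, 0.407 and 1.13 FPKM in Activin A, and 0.198, 0.195 and 0.697 FPKM in SB431542. Activin A was thus at 6.35% of the WT mean and SB431542 at 3.13%, beside 3.72% in knock-in. Without library 3 of the group SB431542 was at 1.69% and knock-in at 2.25%. The lowest WT library held 4.56 times the highest Activin A library and 7.40 times the highest SB431542 library. Between libraries of the same number, Activin A held 2.11, 2.00 and 1.46 times the PPP2R2C of untreated knock-in, across the difference in medium.

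PAK3 measured 12.6, 7.31 and 15.0 FPKM in Activin A and 10.8, 6.61 and 11.8 FPKM in SB431542. The means were 19.8% and 16.6% of WT, beside 17.6% in knock-in. The lowest WT library was 2.60 times the highest Activin A library and 3.30 times the highest SB431542 library. Between libraries of the same number, Activin A held 1.28, 1.01 and 1.07 times the PAK3 of untreated knock-in. No treated library reached the lowest WT library for any of the 3 genes. The treated cells are knock-in cells, in which the genes were selected as low. The share of all genes that lie apart from WT in this way was not counted.

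The direct comparison of Activin A with SB431542 used libraries that the selection did not, and none of the 3 genes was called. Over 13999 genes, limma called 13, 0.0929%, with 8 higher and 5 lower in Activin A, and 1797 had an unadjusted p under 0.05. For MAB21L2 the group means were 1.28 ± 1.23 FPKM in Activin A and 1.51 ± 1.07 in SB431542 (SD, n = 3 each). The log2(FPKM + 1) difference, Activin A minus SB431542, was -0.20 (SE 0.43, 95% interval -1.23 to 0.84, limma adjusted p = 0.88), and the exact two-sided permutation p was 0.7. The interval of this unpaired fit spans both directions, and that of the paired fit, given after the other genes, is narrower.

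For PPP2R2C the means were 0.737 ± 0.367 FPKM in Activin A and 0.363 ± 0.289 in SB431542, with overlap between groups. The difference was 0.35 (SE 0.20, interval -0.13 to 0.82, limma adjusted p = 0.51), and the exact two-sided permutation p was 0.3. For PAK3, at 11.6 ± 3.92 and 9.73 ± 2.75 FPKM, the difference was 0.22 (SE 0.29, interval -0.48 to 0.92, limma adjusted p = 0.80), with an exact two-sided permutation p of 0.5. With 3 libraries against 3 the smallest p this permutation test can give is 0.1.

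Libraries with the same number deviated together in Activin A and SB431542, so the comparison was also fitted with the replicate block. The same genes then had narrower intervals. PPP2R2C was higher in Activin A in 3 of 3 pairs, by 3.39, 2.09 and 1.62 times, with an interval of 0.14 to 0.56 and an unadjusted limma p of 0.0078 that did not survive adjustment over all genes (adjusted p = 0.097). PAK3 was higher in 3 of 3 pairs, by 1.17, 1.11 and 1.27 times (interval 0.02 to 0.41, limma adjusted p = 0.18). MAB21L2 was higher in Activin A in 0 of 3 pairs, at ratios of 0.949, 0.330 and 0.966 (interval -0.53 to 0.13, limma adjusted p = 0.40). The block raised the genes called from 13 to 99, or 0.707% of those tested, and none of the 3 genes was among them. For PPP2R2C the pseudocount of 1 held the difference to 0.35, under the fold threshold of 1. In unpaired fits it was 0.93 and 1.14 with pseudocounts of 0.1 and 0.01. The block was not fitted with these, so the missing call of PPP2R2C cannot be separated from the scale.

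**Figure D2:**
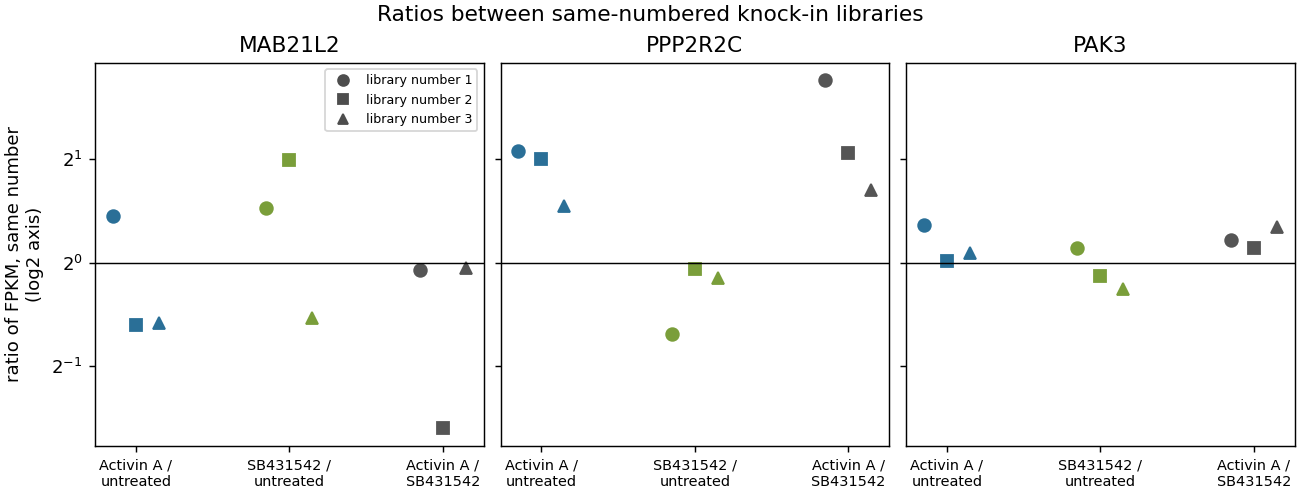
Ratios of FPKM between libraries of the same number (log2 axis; the line marks a ratio of 1) for Activin A over untreated knock-in, SB431542 over untreated knock-in and Activin A over SB431542. PPP2R2C and PAK3 lie above 1 in the Activin A over SB431542 column for numbers 1, 2 and 3, and MAB21L2 lies below it; the first 2 columns compare across tables and media.

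The ratios of SB431542 to untreated knock-in, across tables, went in no common direction for MAB21L2, at 1.44, 1.99 and 0.690 for numbers 1, 2 and 3. They were 0.622, 0.957 and 0.901 for PPP2R2C and 1.10, 0.916 and 0.840 for PAK3. MAB21L2 in Activin A over untreated knock-in stood at 1.37, 0.657 and 0.666. For comparison, 2 SMAD2/3 targets with signal in both treatments were called, beside 0.0929% of all genes. SMAD7, an inhibitory SMAD induced by the pathway, had means of 7.34 and 1.41 FPKM in Activin A and SB431542 (log2 difference 1.80, limma adjusted p = 0.024), and NANOG had means of 154 and 16.9 FPKM (3.18, limma adjusted p = 0.042).

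With the replicate block the limma adjusted p was 0.016 for SMAD7 and 0.011 for NANOG. In unpaired leave-one-out fits the differences stayed at 1.70 to 1.90 and 2.99 to 3.56, while SMAD7 lost its call without any 1 of the 6 libraries (adjusted p 0.054 to 0.15) and NANOG without any 1 except SB431542 library 2 (0.13 to 0.21). Leaving out 1 library makes the library numbers unequal between the groups, and these fits were not run with the block. NANOG was also not called with a pseudocount of 0.01 (0.063), no filter (0.10), a filter of 1 FPKM (0.057) or no variance trend (0.052). LEFTY2, a NODAL and Activin antagonist, had a mean of 1.12 FPKM in Activin A and was listed at 0 in the 3 SB431542 libraries. It passed the filter through Activin A alone and its fitted difference follows the pseudocount (1.07, 3.57 and 6.78 at 1, 0.1 and 0.01), so its call is not counted here.

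The 3 genes shared an order over the library numbers. From high to low the order was 3, 1, 2 for MAB21L2, PPP2R2C and PAK3 in knock-in, in Activin A and in SB431542. In WT, whose numbers are not those of the lines, it was 1, 3, 2 for MAB21L2 and 1, 2, 3 for the others. This order was noticed after the values were seen, and 880 of 13999 genes (6.29%) also had it in all 3 groups. In the 6 treated libraries, which the selection did not use, a limma F test of the number with treatment in the model called 215 genes, 1.54% of those tested, at an adjusted p of at most 0.05.

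PAK3 was among the genes that differed by number (F = 45.8, limma adjusted p = 0.047), with number 3 higher than number 2 by 0.84 and than number 1 by 0.17 on the log2(FPKM + 1) scale. MAB21L2 did not pass (F = 35.3, limma adjusted p = 0.057), with number 3 higher than number 1 by 0.94 and than number 2 by 1.27. PPP2R2C did not pass either (F = 17.2, limma adjusted p = 0.094), with gaps of 0.43 and 0.55. Without the variance trend PAK3 was not called (adjusted p = 0.051). The knock-in titles carry the line names; for the treated libraries the labels give a number only, and its match to a line rests on the correlation of deviations.

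The relatives of the 3 genes were counted in 7 lists compiled from general knowledge of the families. They hold 84 genes besides the members, of which 73 were in the tables and 66 were tested. Against WT, 3 were called higher in knock-in and 0 lower, 4.55% of those tested beside 2.31% of all genes in either direction. At an unadjusted limma p under 0.05 there were 24 of the 66 (36.4%), beside 28.6% of all genes tested. Their median log2 difference was 0.01, and that of all genes tested was 0.00. Between Activin A and SB431542, 0 of 66 were called, 12 had an unadjusted limma p under 0.05 (18.2%, beside 12.8% of all genes), and the median was -0.04.

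In the MAB21 family, 7 genes besides MAB21L2 were tested and 1 was called. ITPRIP, a MAB21-domain protein that binds the inositol trisphosphate receptor, rose from 5.10 ± 0.67 to 14.2 ± 1.82 FPKM (SD, n = 3 each; log2 difference 1.32, limma adjusted p = 0.0073). MAB21L1, the closest paralog of MAB21L2, was near the floor in both groups, at 0.205 ± 0.103 FPKM in WT and 0.128 ± 0.123 in knock-in (-0.10, limma adjusted p = 0.60). It stayed at 0.133 FPKM in Activin A and 0.111 in SB431542.

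Of the PP2A genes, the 4 scaffold and catalytic subunits, 10 regulatory subunits and 7 inhibitors and modifiers that were tested gave 0 calls in either comparison. PPP2R2A, the B55 alpha subunit, measured 36.1 ± 4.19 FPKM in WT and 29.4 ± 0.628 in knock-in (-0.28, limma adjusted p = 0.14). PPP2R2B, the B55 beta subunit, was listed at 0 in the 6 libraries of WT and knock-in, and PPP2R2D was not matched by symbol. PPP2R2C therefore made up 23.0% ± 9.05 (SD, n = 3; range 13.7% to 31.8%) of the FPKM summed over PPP2R2A, PPP2R2B and PPP2R2C in WT. In knock-in its share was 1.46% ± 1.03, in Activin A 2.76% ± 1.51 and in SB431542 1.21% ± 0.924. The summed FPKM ran from 37.6 to 59.7 in WT and from 29.5 to 30.2 in knock-in.

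Among the PAK kinases, none of the 5 others was called. PAK1, a group I kinase like PAK3, measured 32.4 to 42.8 FPKM in WT and 22.0 to 27.2 in knock-in (-0.51, limma adjusted p = 0.071). PAK2, the most widely expressed group I kinase, measured 26.1 ± 1.39 and 20.5 ± 2.40 FPKM (-0.34, limma adjusted p = 0.11). In WT, PAK3 was the most abundant of these 3 kinases by mean FPKM, with 46.6% ± 9.44 of their sum (range 40.2% to 57.4%). In knock-in it was the least abundant by mean, with 18.2% ± 3.39 of the sum, and it held 20.1% ± 5.66 in Activin A and 16.6% ± 3.52 in SB431542. The summed FPKM of PAK1, PAK2 and PAK3 was 121 ± 38.3 in WT and 55.8 ± 8.19 in knock-in.

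Among the group II kinases, PAK4 and PAK6 had positive differences under the fold threshold, and PAK5 one of 0.10 (limma adjusted p = 0.73). PAK4 measured 13.9 ± 1.52 FPKM in WT and 24.5 ± 0.495 in knock-in (0.78, limma adjusted p = 0.015), and PAK6 measured 0.819 ± 0.245 and 1.82 ± 0.262 (0.64, limma adjusted p = 0.046). Between Activin A and SB431542 the differences were -0.14 for PAK4 (limma adjusted p = 0.55) and -0.28 for PAK6 (limma adjusted p = 0.59).

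Of 15 genes that act upstream of PAK kinases, GTPases and adaptors, 0 were called in either comparison. RHOU, a CDC42-like GTPase, had the most negative log2 difference of the 66 relatives (-1.36, limma adjusted p = 0.074). It measured 43.2 ± 22.7 FPKM in WT and 15.8 ± 7.01 in knock-in. Of 18 inhibitors and substrates, 2 were called higher in knock-in. MYL9, a myosin light chain of contractile cells, rose from 12.5 ± 2.43 to 57.7 ± 5.24 FPKM (2.13, limma adjusted p = 0.0015). FLNA, an actin crosslinker, rose from 105 ± 22.9 to 248 ± 51.9 FPKM (1.24, limma adjusted p = 0.022), and its call was lost without WT library 1 (adjusted p = 0.0505) and without knock-in library 1 or 2 (0.082 and 0.071).

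**Figure D3:**
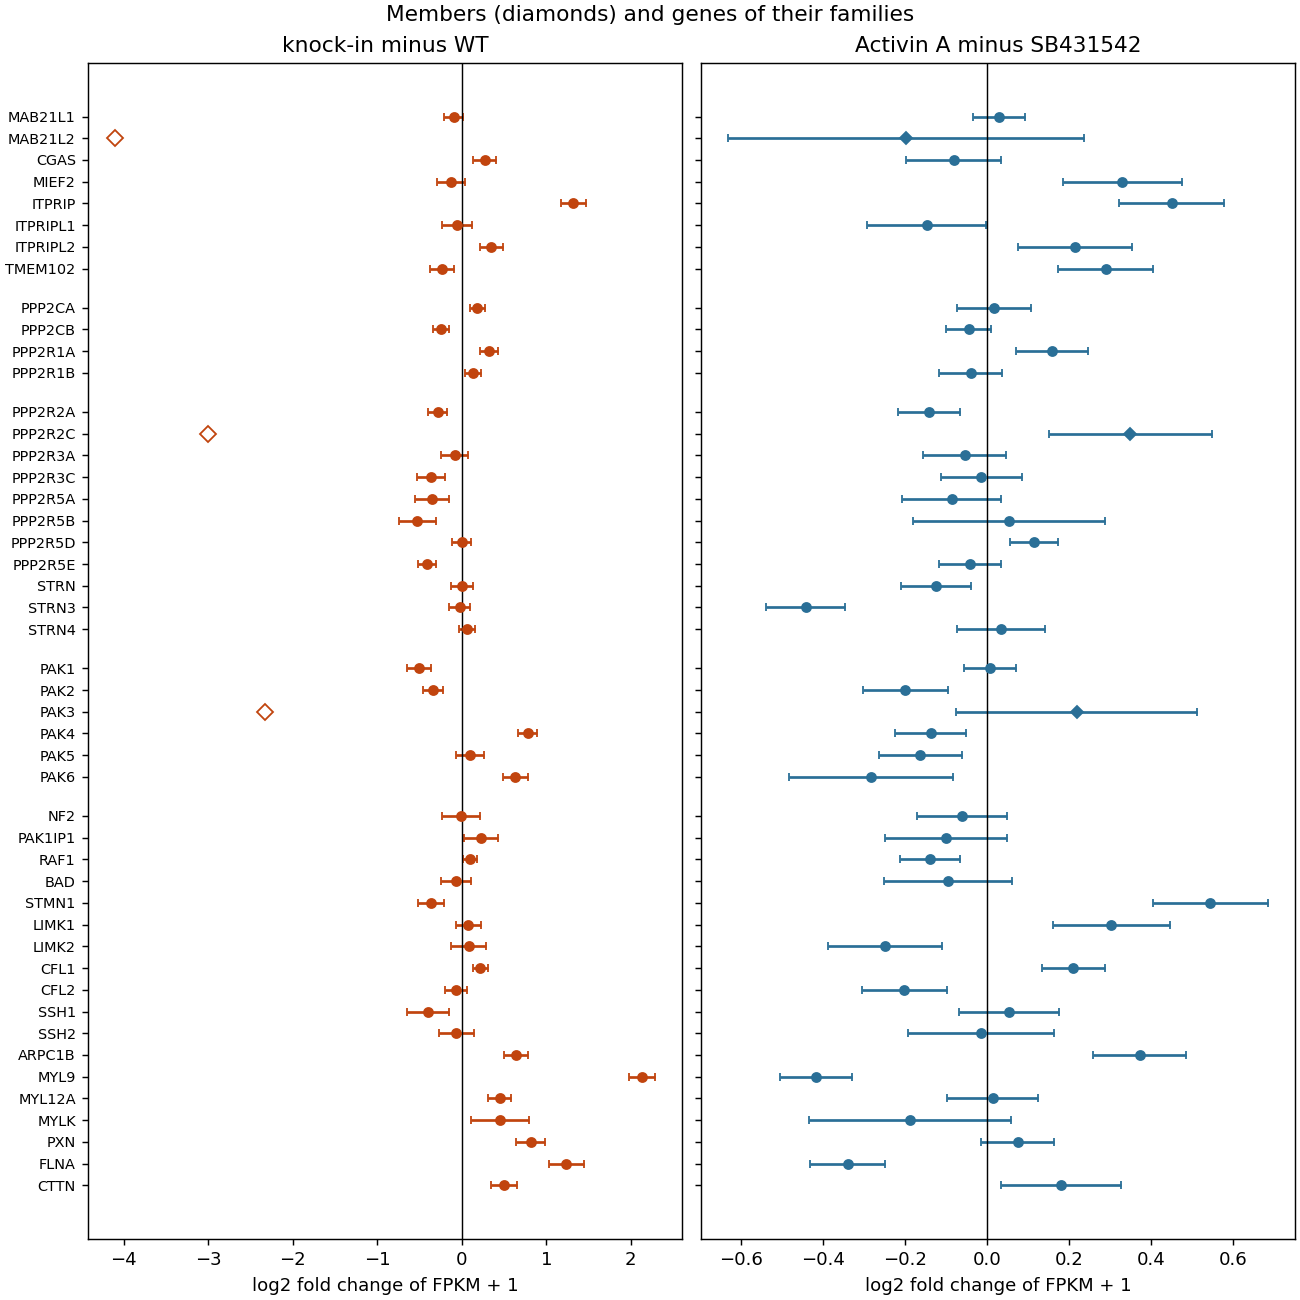
Log2 fold change of FPKM + 1 (points, bars of 1 SE from limma) for the 3 members (diamonds) and tested genes of their families, ordered by list from MAB21 kin through PP2A and PAK kinases to PAK inhibitors and substrates; the list of upstream GTPases and the PP2A inhibitors are not drawn. In knock-in minus WT the open diamonds, drawn without an error because the contrast selected them, lie between -4.10 and -2.32 while MYL9 at 2.13 is the highest relative; the right panel has a narrower axis.

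Of 19 annotated neighbours, 3 on each side of each member and LRBA, 10 were in the tables and 8 were tested. LRBA, whose span contains MAB21L2, measured 10.9 ± 1.68 FPKM in WT and 6.48 ± 0.794 in knock-in (-0.67, limma adjusted p = 0.048), below the fold threshold. Whether the reads were counted by strand is not given in the sources used here, so reads from the overlap of both genes could be assigned to either. On the X chromosome, DCX at chrX:91317671-91644572 lies beyond CAPN6 on the side of PAK3 with higher coordinates. DCX was the 1 of 8 neighbours called, lower in knock-in, beside 0.706% of all genes called lower. Its call was lost without WT library 1 or 2 or knock-in library 1 or 2 (limma adjusted p 0.059 to 0.081). CHRDL1, on the other side of PAK3, measured 6.84 ± 3.40 and 3.04 ± 0.442 FPKM (-0.88, limma adjusted p = 0.097). Around PPP2R2C, WFS1, an endoplasmic reticulum membrane protein, had a difference of 0.09, and JAKMIP1 one of -0.16. No neighbour was called between Activin A and SB431542.

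As MAB21L2, PPP2R2C and PAK3 are all known from neural tissue, markers of neural progenitors and neurons were read beside them. Of 16 tested, 11 had negative and 5 had positive differences, where 50.2% of all genes tested were negative. In knock-in 3 were called lower, 18.8% beside 0.706% of all genes, and 0 higher. PAX6, a transcription factor of neural progenitors and the eye field, fell from 16.6 ± 9.16 to 2.94 ± 1.81 FPKM (-2.17, limma adjusted p = 0.040).

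DCX, a microtubule protein of migrating neurons, fell from 16.8 ± 1.58 to 5.73 ± 2.48 FPKM (-1.46, limma adjusted p = 0.021), and SNAP25, a synaptic SNARE, from 8.17 ± 1.99 to 2.70 ± 0.893 (-1.32, limma adjusted p = 0.025). NES, an intermediate filament of progenitors, had a positive difference of 0.80 (78.1 and 136 FPKM, limma adjusted p = 0.019), under the fold threshold. Also not called were STMN2, a neuronal microtubule regulator, at -0.94 (237 and 122 FPKM, limma adjusted p = 0.017), and GAP43, a growth cone protein, at -1.01 (32.7 and 16.4 FPKM, limma adjusted p = 0.051). The count of 3 was 0 without knock-in library 1, knock-in library 2, WT library 1 or WT library 2, and 1 with no filter. PAX6 also lost its call without knock-in library 3 (adjusted p = 0.062) and with a pseudocount of 0.01 (0.052). Summed over the 18 markers in the tables, the level was 548 to 638 FPKM in WT, 447 to 563 in knock-in, 461 to 634 in Activin A and 312 to 435 in SB431542. In the comparison of Activin A with SB431542, 0 of 15 were called, where 0.0929% of all genes were, so this count is not informative. Of the 15, 12 had positive differences (49.1% of all genes tested did), with a median of 0.53 beside 0.00 over all genes. In this unpaired fit GAP43 stood at 1.57 (limma adjusted p = 0.14) and STMN2 at 0.92 (0.14). Both were higher in Activin A for library numbers 1, 2 and 3, and their result with the replicate block is not given here.

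**Figure D4:**
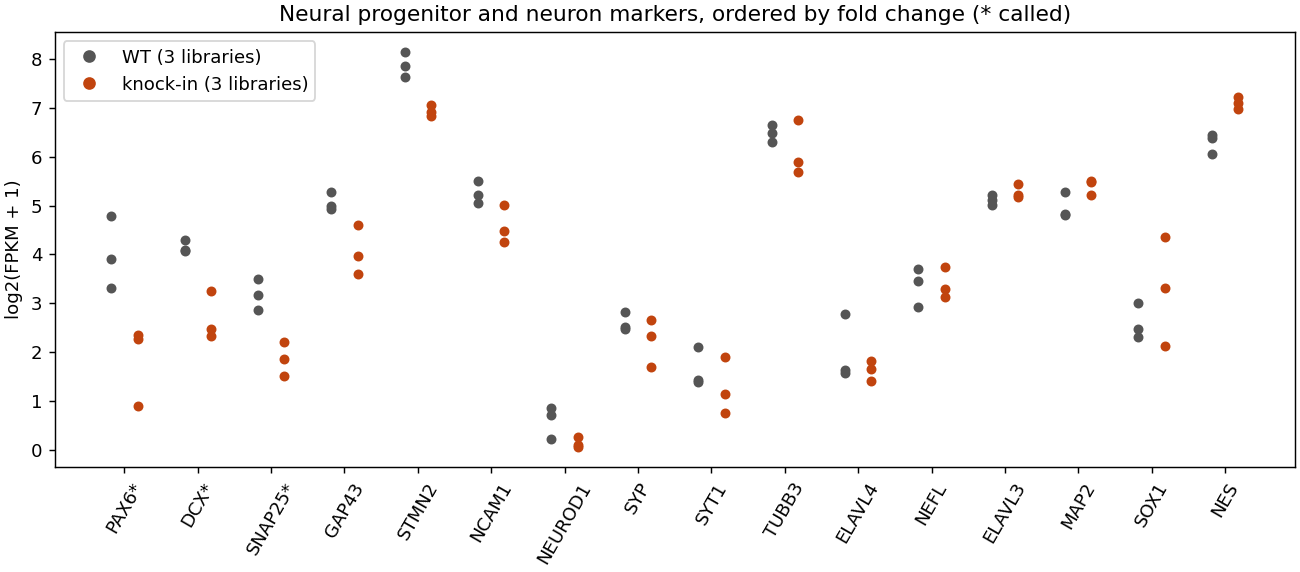
Log2(FPKM + 1) of 16 neural progenitor and neuron markers in 3 WT and 3 knock-in libraries, ordered by fold change from PAX6 on the left to NES on the right; a star marks a gene called. For the 3 called genes, PAX6, DCX and SNAP25, each WT library is above each knock-in library, and most other markers overlap or differ less.

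Markers of other cells the cultures could hold were read in the same way, beside 1.61% of all genes called higher in knock-in. Over 10 pericyte markers, the summed level was 30.0 to 33.2 FPKM in WT and 54.3 to 57.7 in knock-in, and 2 of 9 tested were called higher, PDGFRB (2.32 to 9.28 FPKM; 1.64, limma adjusted p = 0.012) and ACTA2 (1.39 to 13.7 FPKM; 2.61, limma adjusted p = 0.0016). These carried most of the difference in the pericyte sum. MCAM (-0.02), KCNJ8 (0.04) and NOTCH3 (0.14) were not called, and DES, under the filter, had means of 0.425 and 0.0322 FPKM. Over 10 fibroblast markers it was 9.93 to 15.2 FPKM in WT and 23.1 to 46.8 in knock-in, and 1 of 7 tested, DCN, was called higher (1.49, limma adjusted p = 0.031). The call of DCN was lost with no filter (adjusted p = 0.060) and without WT library 1 or 2 or knock-in library 2 or 3 (0.066 to 0.088). The fibroblast sum was carried by DCN, COL1A2 and COL3A1, and COL3A1 ranged from 0.771 to 23.2 FPKM among the knock-in lines. COL1A1 (-0.39), PDGFRA (-0.16) and S100A4 (-0.13) had negative differences, and LUM and POSTN, under the filter, also had lower means in knock-in. Of 8 pluripotency markers tested, NANOG (2.06, limma adjusted p = 0.025) and LIN28A (2.08, limma adjusted p = 0.018) were called higher in knock-in, and SOX2 measured 43.4 and 66.3 FPKM. ZFP42 and DPPA2 were listed at 0, and POU5F1, UTF1 and DPPA4 were not matched by symbol, so the label of pluripotent cells was checked on the others. Several of those were low: EPCAM measured 0.380 FPKM in WT and 0.335 in knock-in, and TDGF1 was listed at 0 in the 3 knock-in libraries. In WT and knock-in, SALL4 measured 13.8 and 13.7 FPKM, LIN28B 13.0 and 18.0, CDH1 1.56 and 8.36, and DNMT3B 27.3 and 20.3, none of them called. The line nanog2 carries the CDH1 mean, with 5.01, 17.5 and 2.63 FPKM in nanog1, nanog2 and nanog3. NANOG lost its call without WT library 1 or 2 or any 1 of the knock-in libraries (adjusted p 0.054 to 0.079) and with no filter (0.054), and LIN28A without WT library 1 or knock-in library 1 (0.061 and 0.062). ID1, a target of BMP and Activin signalling, was also called higher in knock-in (1.56, limma adjusted p = 0.023), except without WT library 1 or 2 or knock-in library 1 (0.058 to 0.062).

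Of 10 eye field markers, 8 were under 1 FPKM in each of the 4 groups, PAX6 and OTX2 being the exceptions, and 1 of 3 tested, PAX6, was called in knock-in against WT. The part of these cell type markers in the difference of the 3 genes was not tested. Between the treatments, where the 3 genes were not called, ACTA2 was lower in Activin A than in SB431542 (8.32 and 19.4 FPKM; -1.13, limma adjusted p = 0.035), a call lost without any 1 of the 6 libraries (adjusted p 0.090 to 0.16). The fibroblast sum went the other way, at 44.9 to 70.2 FPKM in Activin A and 10.2 to 18.2 in SB431542. In the unpaired fit COL1A2 stood at 1.59 (limma adjusted p = 0.093) and COL3A1 at 3.08 (0.20), neither of them called. Both were higher in Activin A for numbers 1, 2 and 3. COL1A2 measured 21.3, 11.2 and 12.7 FPKM in Activin A and 4.77, 3.24 and 4.66 in SB431542. Their result with the replicate block is not given here.

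The genes whose pattern was most like each member were found by Pearson correlation of log2(FPKM + 1) over the 12 libraries among 13082 genes. The libraries share the split of WT from the other groups, which sets most of the likeness, so r over the 9 libraries without WT is given for some genes, and levels of both tables enter it. The 4 nearest to MAB21L2 were ZNF182 (r = 0.983), TAFA5, CACNA1E and CACUL1 (r = 0.978). TAFA5 passed the filter of 0.1 FPKM through WT alone, at 0.291 to 0.356 FPKM, with at most 0.0932 FPKM in the other groups. Its likeness (r = 0.801 without WT) therefore rests on values near the floor, and nothing is read from it. CACNA1E, a voltage-gated calcium channel subunit, had means of 5.05 ± 1.37 FPKM in WT and 0.429 ± 0.199 in knock-in, then 0.498 in Activin A and 0.538 in SB431542 (r = 0.878 without WT).

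Nearest to PPP2R2C were SPON2 (r = 0.988), ALKBH2, CDH7, RPL23A and SDCBP (r = 0.981). Without WT their r ran from 0.701 for CDH7 to 0.869 for SPON2, and 0 of these 5 stayed among the nearest with a pseudocount of 0.1. SPON2, a secreted matrix protein, measured 1.64 ± 0.815 FPKM in WT, 0.125 ± 0.0464 in knock-in, 0.272 ± 0.198 in Activin A and 0.0921 ± 0.103 in SB431542. CDH7, a cadherin, measured 3.74 ± 1.21 and 0.806 ± 0.269 FPKM in WT and knock-in. Nearest to PAK3 were HERC5 (r = 0.991), ALKBH2, GOLGA1, TBC1D30 and HRH2 (r = 0.981). HERC5, an interferon-induced ubiquitin-like ligase, measured 6.08 ± 3.67 FPKM in WT, 0.734 ± 0.274 in knock-in, 0.985 ± 0.666 in Activin A and 0.748 ± 0.348 in SB431542 (r = 0.915 without WT). ALKBH2 was near both PPP2R2C and PAK3. RPL23A, a ribosomal protein gene with many near-identical copies, is uncertain because reads can be split among them.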

How the data were processed

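Expression was used as the FPKM that the authors deposited per gene, in a table of WT and knock-in libraries and a table of Activin A and SB431542 libraries. Per the paper and the submitters' processing notes, base calls came from bcl2fastq 2.17.1.14, reads were trimmed with Trim Galore, aligned to Ssc11.1 with HISAT2 2.0.4 and quantified with StringTie 1.3.3. The authors tested featureCounts 1.6.4 counts with DESeq2. Counts were not used here, so depth is known only relative to a reference library and no counting error is given.

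Genes with at least 0.1 FPKM in 3 of 6 libraries were fitted within each table, after adding 1 and taking log2, with limma 3.58.1 in R 4.3.3 with a variance trend, and figures were drawn with matplotlib 3.10.9. Genes were called at a log2 difference of 1 or more in size with a Benjamini-Hochberg adjusted p, over all genes tested, of 0.05 or less. The procedure was tested on simulated data. Members and gene lists were chosen with earlier results of these data known. Named genes are the members, list genes called in a comparison, paralogs, the 3 nearest genes on each side, spans that hold a member, and the 5 genes most alike in pattern; 1 of these and 1 neural marker are not reported here; other list genes were named after their values were seen. Of 18416 genes with a symbol, 965 were named through the RefSeq table.

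The library number pairs Activin A and SB431542 by the data: deviations from group means correlated at 0.40, 0.59 and 0.53 for numbers 1, 2 and 3 over 13999 genes. Knock-in and WT gave -0.02, 0.01 and 0.09 and are not paired. Alternatives were pseudocounts, filters, TPM, median-ratio scaling, no variance trend, the replicate block and leaving out each library.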

Additional observations from a re-analysis of the deposited data

How the results depend on the processing

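The members' Activin A minus SB431542 differences were recomputed under 13 alternatives for MAB21L2 and PPP2R2C, which have no value at a filter of 1 FPKM, and 14 for PAK3, and none was called. With pseudocounts of 0.1 and 0.01 and in TPM the difference was -0.48, -0.56 and -0.35 for MAB21L2 and 0.93, 1.14 and 0.59 for PPP2R2C. Adjusted p ran from 0.40 to 0.94, 0.097 to 0.76 and 0.18 to 0.99. Leaving out each library, in unpaired fits, gave -0.61 to 0.15 for MAB21L2, which turned positive without Activin A library 2 (0.15) or SB431542 library 3 (0.13). It gave 0.19 to 0.52 for PPP2R2C, and -0.013 to 0.49 for PAK3, negative without SB431542 library 2 (-0.013). Such fits leave the library numbers unequal between the groups, so these shifts also hold the difference between numbers. By pairs, Activin A was higher in 0 of 3 for MAB21L2 and in 3 of 3 for PPP2R2C and for PAK3. WT and knock-in libraries did not overlap for these genes, so leaving out a library could not change the sign between them. The knock-in minus WT difference, which selected the genes, was -4.66 to -3.76, -3.44 to -2.59 and -2.55 to -1.92 in leave-one-out fits. It moved to -5.01 and -5.17 for MAB21L2 and to -4.42 and -4.74 for PPP2R2C with pseudocounts of 0.1 and 0.01, and to -3.75 for PPP2R2C in TPM. The PAK3 gap between library numbers was 0.84 without the variance trend, where its adjusted p rose to 0.051.

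The number of genes called between Activin A and SB431542, 13, was 8 with a pseudocount of 0.01, 5 with no filter, 5 at a filter of 1 FPKM, 7 without the variance trend and 0 to 5 in leave-one-out fits: 1, 0 and 2 without Activin A libraries 1, 2 and 3, and 0, 5 and 0 without SB431542 libraries 1, 2 and 3. With the replicate block it was 99. The 3 neural markers called lower became 1 with no filter, 1 with the replicate block and 0 to 4 in leave-one-out fits. The family genes called, 3 in knock-in against WT, were 2 to 4 in leave-one-out fits. Of the 5 genes most like each member, 3 for MAB21L2, 0 for PPP2R2C and 3 for PAK3 kept their place with a pseudocount of 0.1. LEFTY2 has no value without an Activin A library, and lost its call without any 1 SB431542 library (0.11 to 0.21), with no filter (0.068) and without the variance trend (0.052). The causes were not tested. PPP2R2C and MAB21L2 lie under 1 FPKM in most knock-in libraries, where values rest on few reads.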
